A study of Mus musculus with 6 samples.

Results

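Axonemal dyneins are the motors that bend motile cilia and flagella. Outer arms set the beat frequency and inner arms shape the bend, and both arms are built from heavy chains, which hold the motor, with intermediate and light chains. The arms are assembled in the cytoplasm by dedicated factors before they are carried into the cilium. In the brain these genes are best known from the multiciliated ependymal cells that line the ventricles, among them the third ventricle which the hypothalamus borders, where their beat moves cerebrospinal fluid. Mice lacking the outer arm heavy chain Dnah5 develop hydrocephalus, and mutations in many of the human genes cause primary ciliary dyskinesia.

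The genes described here are the rows of the count table named as axonemal dynein heavy, intermediate or light chains or as dynein assembly factors, together with Ccdc39, Ccdc40, Ccdc103 and Zmynd10. This rule found 30 of the 50559 genes in the table, and it uses names alone, not measured values. Of these, 29 had at least 10 counts over all libraries, and all 29 passed the filter on low counts and were tested. The other one, the row named Dnaaf6, had 0 counts in every library. It lies on chromosome 1 and carries the current name Dnaaf6rt, while the X-chromosomal row Dnaaf6b is the gene now called Dnaaf6.

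The study sequenced RNA from hypothalamus of mice, 3 libraries labelled SRC1 KO and 3 labelled WT, in a project on steroid receptor coactivator SRC-1 and cognition in ageing. SRC-1, encoded by Ncoa1, is a coactivator of nuclear receptors. The sources used here give no age, sex or strain, and do not state which part of the gene was deleted or whether the deletion was limited to a cell type. Nothing in the labels ties each library to an animal of its own, so p-values measure the spread between these libraries, which may be technical. Levels are CPM, counts scaled to library size with TMM factors, differences are log2 fold changes of SRC1 KO over WT with their standard error (SE), and a gene passed the test at a Benjamini-Hochberg adjusted p under 0.05 in edgeR's quasi-likelihood test over all 20257 genes tested.

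The libraries held between 36613507 and 46755553 counts. Ncoa1 had 40.3, 37.2 and 38.7 CPM in SRC1 KO and 127, 122 and 130 CPM in WT, so the labels and the deleted gene went together. Hypothalamic peptide genes were present in all 6 libraries, but unevenly. Avp ranged over 32.2 to 78.3 CPM in SRC1 KO and 24.6 to 150 CPM in WT, while Pomc ranged over 5.27 to 30.2 CPM in SRC1 KO and 49.99 to 77.1 CPM in WT. Gh, the growth hormone gene of the pituitary, had 280, 7 and 1 counts in SRC1 KO 1 to 3 and 477, 0 and 0 counts in WT 1 to 3, so SRC1 KO 1 and WT 1 stand apart, and the main counts are given below also without them. Cga, another gene of the pituitary, had 15, 1 and 3 counts in SRC1 KO 1 to 3 and 184, 225 and 502 counts in WT 1 to 3. Leaving out SRC1 KO 1 and WT 1 does not remove that difference, and its part in the results was not tested. In bulk tissue, fewer cells of a type and less RNA per cell cannot be told apart.

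The start regions of these genes were examined because RFX factors, which bind the X-box, are known regulators of ciliary genes. Sequences of the 300 bases from 250 before to 50 after each start site came from RefSeq on GRCm38.p6, a build other than that of the counts, and 28 of the 30 genes had an entry. Dnah3 and Dnaaf1 did not. The promoters of the genes that passed the test are shown whole. That of Dnah9 lies at chr11:66168502-66168801 on the minus strand and that of Ccdc40 at chr11:119228322-119228621 on the plus strand. Capitals mark a match to a loose spelling of the X-box, the arms GTTNC and GNNAC with 3 free bases between them, searched on both strands, which Dnah9 holds at position -82 from the start site and Ccdc40 does not hold.
Dnah9: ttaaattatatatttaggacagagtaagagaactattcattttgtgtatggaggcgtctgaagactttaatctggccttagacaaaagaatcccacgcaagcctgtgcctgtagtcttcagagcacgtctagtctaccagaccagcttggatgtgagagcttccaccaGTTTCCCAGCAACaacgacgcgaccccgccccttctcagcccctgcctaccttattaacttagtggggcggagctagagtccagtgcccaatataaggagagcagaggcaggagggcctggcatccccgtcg
Ccdc40: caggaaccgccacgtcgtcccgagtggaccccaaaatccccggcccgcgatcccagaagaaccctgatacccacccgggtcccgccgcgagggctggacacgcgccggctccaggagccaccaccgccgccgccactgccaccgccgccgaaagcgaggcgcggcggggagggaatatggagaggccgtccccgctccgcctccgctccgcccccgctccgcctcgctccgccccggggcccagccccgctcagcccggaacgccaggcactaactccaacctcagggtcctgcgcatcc

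The loose spelling was found in 8 of the 28 promoters, against 3.28% of all 32851 promoters in the table. Besides Dnah9 those shown are Dnah7a (chr1:53706817-53706853, minus strand, match at -57), Dnah7b (chr1:46066817-46066853, plus, -24), Dnah7c (chr1:46425437-46425473, plus, -69), Dnaic1 (chr4:41569763-41569799, plus, -19), Dnaic2 (chr11:114727374-114727410, plus, -33) and Ccdc103 (chr11:102881209-102881245, plus, -3). They are shown with 12 bases on each side so that the matches can be set against each other. The Dnah7 genes have near-identical transcripts and their 3 matches have the same letters, so the 3 may not be separate cases. The promoters were not aligned to each other.
Dnah7a: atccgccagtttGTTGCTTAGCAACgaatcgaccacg
Dnah7b: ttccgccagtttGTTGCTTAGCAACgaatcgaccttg
Dnah7c: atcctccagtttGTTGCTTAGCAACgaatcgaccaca
Dnaic1: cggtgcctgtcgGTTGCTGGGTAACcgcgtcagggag
Dnaic2: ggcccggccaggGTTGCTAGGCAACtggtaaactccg
Ccdc103: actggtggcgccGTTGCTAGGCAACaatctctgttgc

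The short spelling GTTGCC was in 12 of the 28 promoters and in 12.5% of all promoters. The 12 include the 3 Dnah7 copies, Dnaaf6b and its copy Dnaaf6, with transcripts 90.3% identical, of which Dnaaf6 had 0 counts. A strict spelling of the whole X-box was in 0 of 28 and in 0.128% of all. A forkhead spelling, GTAAACA, stood in 1, that of Dnah17, and in 3.65% of all, and another, TGTTTGT, in 0 and in 6.61% of all. Of the remaining X-box spellings, 3 gapped ones were in 2, 2 and 4 of the 28 (0.451%, 0.39% and 1.29% of all) and 2 partial ones in 0 and 2 (0.563% and 5.88% of all), and every match to them but those of Dnaaf5 and Zmynd10 was in Dnaaf6 or Dnaaf6b. The spellings overlap each other, 10 were searched in all, and they were chosen while the promoters were being looked at. A match describes letters in this window and is not a binding site.

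Of the 29 genes, 28 had a lower fitted level in SRC1 KO than in WT hypothalamus, and 2 of them fell past the threshold. Ccdc40, which with Ccdc39 forms the molecular ruler that sets where inner arms attach, fell by 0.98 on the log2 scale. Dnah9, an outer arm heavy chain, fell by 1.18. The share of all genes tested that passed as lower was 0.592%, and 0.242% passed as higher, a direction in which 0 of the 29 passed. At an unadjusted p under 0.05, edgeR had 24 of the 29 lower and 0 higher, where 7.21% and 5.75% of all genes were. DESeq2 and limma-voom likewise called 0 of the 29 higher, where 1.44% and 0.237% of all genes were. A negative log2 fold change, which 28 of the 29 had, was found in 48.9% of all genes.

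The median log2 fold change of the 29 was -0.68, and that of all genes tested was 0.0042. The levels of all 3 SRC1 KO libraries were below those of all 3 WT libraries for 22 of the 29, which holds for 9.03% of all genes. For 0 of the 29 they were all above, against 8.58% of all genes, and for 7 the groups overlapped. The log2 fold change was at or below -1 for 8 genes, between -1 and -0.5 for 11 and above -0.5 for 10. Between groups of 3 and 3 an exact permutation test of a single gene cannot go below p = 0.1, so none was made.

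**Figure D1:**
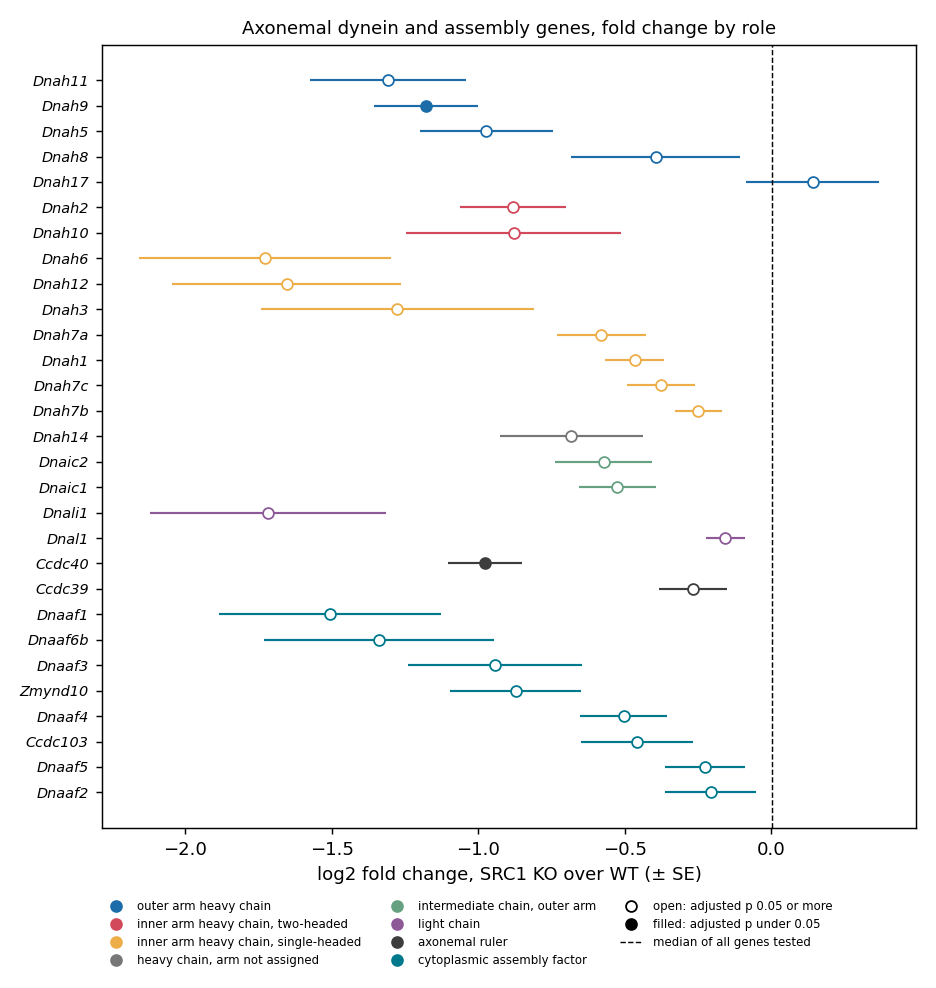
Log2 fold change of SRC1 KO over WT for each of the 29 genes, in blocks by role; points are edgeR estimates, bars 1 SE on each side, filled points have an adjusted p under 0.05 and the dashed line is the median of all genes tested. All points but Dnah17 lie left of 0, from -0.16 for Dnal1 to -1.73 for Dnah6, and only Dnah9 and Ccdc40 are filled.

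Among the outer arm heavy chains, those known from motile cilia of epithelia, Dnah9, Dnah5 and Dnah11, had every SRC1 KO library below every WT library. Dnah9 (chromosome 11, 65722150 to 66059379, minus strand, mm39), a beta-type heavy chain, had 7.05, 10.96 and 7.36 CPM in SRC1 KO against 21.9, 18.0 and 17.4 CPM in WT. The groups were well apart, with SRC1 KO at 44.3% of the WT mean, and the log2 fold change was -1.18 ± 0.18 (adjusted p = 0.0342, edgeR). This call did not hold when most single libraries were left out. Dnah9 passed in 1 of the 6 edgeR fits that leave out 1 library, the one without SRC1 KO 2 (adjusted p = 0.0012). Without SRC1 KO 1, SRC1 KO 3, WT 1, WT 2 or WT 3 its adjusted p was 0.117, 0.0717, 0.0758, 0.0690 and 0.0536, in that order, and its log2 fold change over these 6 fits lay between -1.404 and -1.06. Without both SRC1 KO 1 and WT 1 it was -0.96 with an adjusted p of 0.198 in edgeR.

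Dnah5, the gamma-type heavy chain without which outer arms are missing in mice, had 6.005, 7.61 and 8.96 CPM in SRC1 KO and 19.7, 12.7 and 11.9 CPM in WT. The WT libraries were themselves spread, with WT 1 far above the other two. Its log2 fold change of -0.97 ± 0.23 did not pass (adjusted p = 0.120, edgeR). Dnah11, the other beta-type chain of motile cilia, had 2.502, 4.84 and 2.98 CPM in SRC1 KO and 10.1, 8.90 and 6.45 CPM in WT, with a log2 fold change of -1.31 ± 0.27 (adjusted p = 0.0733, edgeR). It was chosen for its values after they were seen.

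Dnah8 and Dnah17, outer arm chains known best from sperm flagella, were scarce and their groups overlapped. Dnah17 had 2.41, 2.80 and 1.62 CPM in SRC1 KO and 2.28, 2.11 and 1.78 CPM in WT. It was the only one of the 29 with a positive log2 fold change, 0.14 ± 0.23 (adjusted p = 0.872, edgeR), and without SRC1 KO 2 that was -0.031. Dnah8 had 1.81, 1.94 and 2.67 CPM in SRC1 KO and 3.82, 2.93 and 1.71 CPM in WT, a log2 fold change of -0.39 ± 0.29. Over the 5 outer arm heavy chains, 1 passed as lower, 3 had groups that did not overlap and the median log2 fold change was -0.97. DESeq2 called 3 of the 5 (Dnah9, Dnah5 and Dnah11) and limma-voom 1, Dnah9.

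The heavy chains of the double-headed inner arm, Dnah2 and Dnah10, differed in how evenly the libraries behaved. Dnah2 had 6.43, 9.12 and 6.46 CPM in SRC1 KO and 15.7, 14.2 and 10.6 CPM in WT, so the groups stayed apart, and its log2 fold change was -0.88 ± 0.18 (adjusted p = 0.0670, edgeR). Dnah10 had 5.77, 12.6 and 6.004 CPM in SRC1 KO and 17.0, 16.5 and 11.2 CPM in WT. SRC1 KO 2 lay above WT 3 here, and with nearly the same log2 fold change, -0.88 ± 0.37, the adjusted p was 0.410 in edgeR. Without SRC1 KO 2 Dnah10 passed (adjusted p = 0.0108, edgeR).

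The 7 single-headed inner arm heavy chains had log2 fold changes from -1.73 to -0.25, and 0 of them passed the test. By edgeR all 7 were lower at an unadjusted p under 0.05, and 6 had groups that did not overlap. DESeq2 called 3 of them (Dnah1, Dnah6 and Dnah12) and limma-voom 0. Their median log2 fold change was -0.58, with Dnah6 lowest and Dnah7b nearest 0. Of all genes, 7.21% were lower at that unadjusted p and 9.03% had SRC1 KO wholly below WT. DESeq2 called 2.63% of all genes with an adjusted p lower, and limma-voom 0.691% of all genes. Counts of lower genes in the other roles and lists are to be read beside the same shares.

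Dnah1 was the most abundant heavy chain per kilobase. It had 53.3, 56.9 and 60.8 CPM in SRC1 KO and 88.4, 66.8 and 80.9 CPM in WT, a separation with no overlap, and its log2 fold change was -0.47 ± 0.10 (adjusted p = 0.0692, edgeR). Dnah6 had 3.19, 8.32 and 4.76 CPM in SRC1 KO and 23.5, 17.8 and 12.4 CPM in WT, and Dnah12 had 1.76, 4.74 and 3.20 CPM in SRC1 KO and 13.5, 9.45 and 7.53 CPM in WT. Both were chosen after their values were seen, as those with the lowest fold changes of the heavy chains. The differences were large, -1.73 ± 0.43 for Dnah6 and -1.65 ± 0.39 for Dnah12 on the log2 scale, and so was the spread among libraries, with edgeR adjusted p of 0.195 and 0.1499 in the same order.

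Dnah3 had 1.93, 4.61 and 1.99 CPM in SRC1 KO and 9.76, 6.60 and 4.24 CPM in WT, so SRC1 KO 2 overlapped WT 3 as in Dnah10, and its log2 fold change was -1.28 ± 0.47. Dnah7b had 26.2, 24.2 and 26.9 CPM in SRC1 KO and 28.8, 33.6 and 29.4 CPM in WT. Its groups did not overlap, yet the log2 fold change was only -0.25 ± 0.081 (adjusted p = 0.210, edgeR). Its copies Dnah7a and Dnah7c had log2 fold changes of -0.58 and -0.37. The transcripts of these 3 genes are 96.8% to 97.3% identical over at least 98.9% of their length, so the split of reads among them is uncertain.

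Dnah14, a heavy chain not assigned to an arm, had 1.17, 1.16 and 0.877 CPM in SRC1 KO and 2.18, 1.56 and 1.396 CPM in WT, with a log2 fold change of -0.68 ± 0.24 (adjusted p = 0.255, edgeR). Summed over all 15 heavy chains per kilobase of exon, the level was 8.86, 10.97 and 10.02 CPM per kb in SRC1 KO and 18.7, 15.3 and 14.5 CPM per kb in WT, and the groups did not overlap. Of the 15, 14 had negative log2 fold changes, 11 had groups that did not overlap and the median was -0.88.

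**Figure D2:**
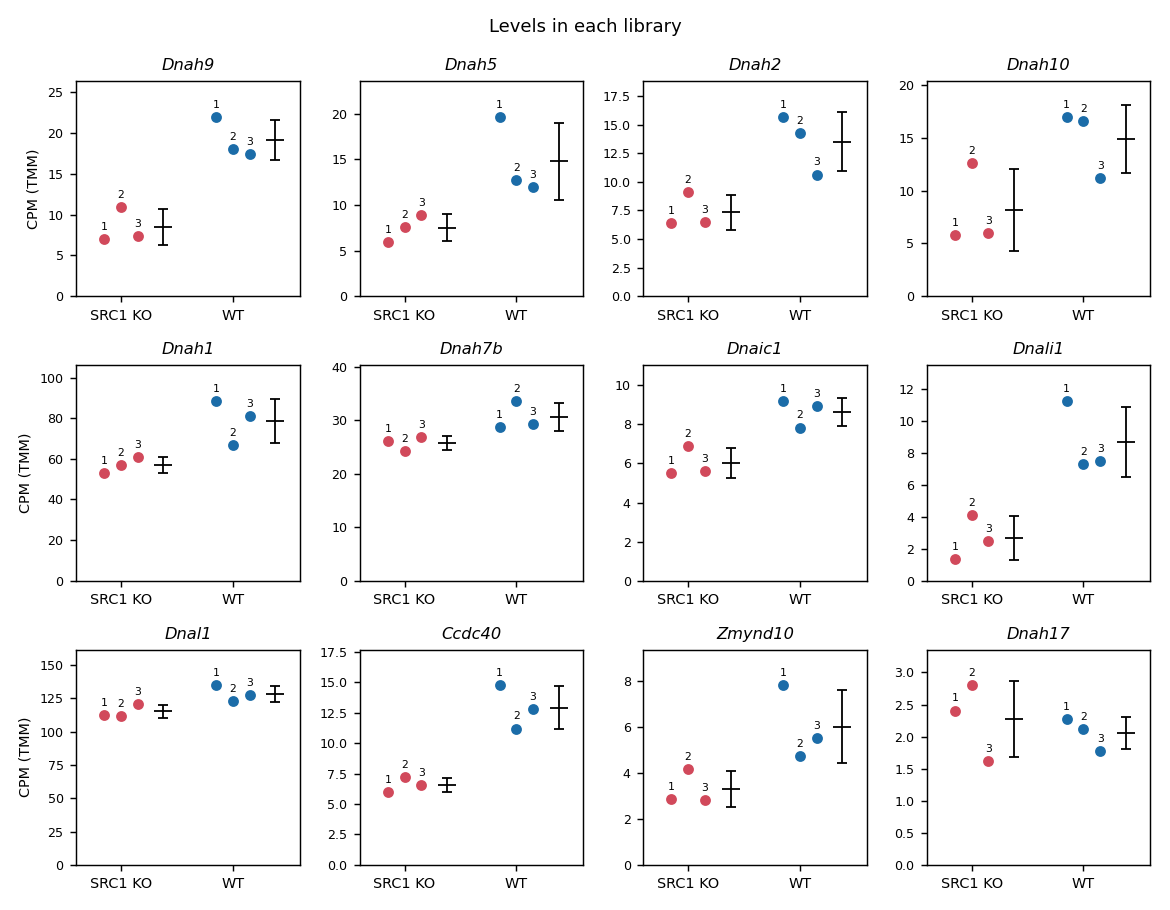
CPM of 12 genes in each library, with SRC1 KO libraries in red left of WT libraries in blue; numbers are the replicates and the bars the mean ± SD of 3 libraries, on axes that start at 0. Dnah9 and Ccdc40 are well apart between the groups, Dnah10 and Dnah17 overlap, and WT 1 is the highest WT library in all panels but that of Dnah7b.

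The intermediate chains Dnaic1 and Dnaic2, which tie the outer arm heavy chains to the microtubule doublet, had similar fold changes. Dnaic1 had 5.53, 6.90 and 5.63 CPM in SRC1 KO and 9.19, 7.84 and 8.93 CPM in WT, a log2 fold change of -0.52 ± 0.13 (adjusted p = 0.0991, edgeR). Dnaic2 had 5.60, 7.38 and 5.59 CPM in SRC1 KO and 11.2, 8.53 and 7.87 CPM in WT, a log2 fold change of -0.57 ± 0.16 (adjusted p = 0.153, edgeR). Neither passed in edgeR (DESeq2 called both and limma-voom 0), and in both the groups did not overlap.

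The light chains were at opposite ends of the list. Dnali1, a light chain of single-headed inner arms, had 1.36, 4.11 and 2.48 CPM in SRC1 KO and 11.2, 7.32 and 7.51 CPM in WT, with a log2 fold change of -1.72 ± 0.40 (adjusted p = 0.147, edgeR). Dnal1, a leucine-rich light chain of the outer arm, had 113, 112 and 121 CPM in SRC1 KO and 135, 123 and 127 CPM in WT, with a log2 fold change of -0.16 ± 0.066 (adjusted p = 0.349, edgeR). Per kilobase Dnal1 was the most abundant of the 29, at 19.4 CPM per kb in SRC1 KO and 21.6 CPM per kb in WT. Dnah1 followed at 4.31 CPM per kb in SRC1 KO and 5.96 in WT, then Ccdc39 at 4.20 in SRC1 KO and 5.05 in WT, while Dnah14 came last at 0.0763 in SRC1 KO and 0.122 in WT.

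The axonemal rulers also parted. Ccdc40 (chromosome 11, 119119328 to 119156074, plus strand, mm39) had 5.98, 7.18 and 6.55 CPM in SRC1 KO and 14.7, 11.2 and 12.8 CPM in WT. SRC1 KO stood at 50.9% of the WT mean, with little spread in either group, and the log2 fold change was -0.98 ± 0.13 (adjusted p = 0.0115, edgeR). It passed in 5 of the 6 edgeR fits that leave out 1 library and not without SRC1 KO 1 (adjusted p = 0.0632). Without both SRC1 KO 1 and WT 1 it was -0.81 with an adjusted p of 0.139 in edgeR. Exons shared with other genes cover 13.0% of Ccdc40.

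Its partner Ccdc39 had 19.5, 24.4 and 24.0 CPM in SRC1 KO and 29.0, 29.6 and 23.2 CPM in WT. The groups overlapped and the log2 fold change was -0.27 ± 0.12 (adjusted p = 0.370, edgeR). Exons of Ttc14 overlap 52.6% of Ccdc39, and counting took no account of strand, so its value is uncertain. The difference between the fold changes of Ccdc40 and Ccdc39 was not tested.

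Among the 8 assembly factors, with Ccdc103 counted as one, 0 passed the test in edgeR, although 6 were lower at an unadjusted p under 0.05. DESeq2 called 3 of them (Zmynd10, Dnaaf1 and Dnaaf3) and limma-voom 0. Their median log2 fold change was -0.69, and 6 had groups that did not overlap. Zmynd10, a factor needed for stable heavy chains, had 2.86, 4.18 and 2.83 CPM in SRC1 KO and 7.80, 4.73 and 5.51 CPM in WT, a log2 fold change of -0.87 ± 0.22 (adjusted p = 0.114, edgeR). Exons of Gm34106 overlap 17.1% of it.

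Dnaaf5, a HEAT-repeat factor, had 8.60, 9.37 and 7.67 CPM in SRC1 KO and 11.6, 9.90 and 8.45 CPM in WT, a log2 fold change of -0.23 ± 0.14. Dnaaf2, a co-chaperone of the PIH family, had 3.84, 5.04 and 4.602 CPM in SRC1 KO and 4.51, 5.65 and 5.39 CPM in WT, a log2 fold change of -0.21 ± 0.15, and shares 32.7% of its exon length with another gene. The groups overlapped in both. The lowest fold change of the assembly factors was that of Dnaaf1, -1.51 ± 0.38, with only 0.238, 0.630 and 0.394 CPM in SRC1 KO and 1.69, 0.951 and 0.939 CPM in WT.

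The remaining assembly factors lay between these. Dnaaf6b had 0.143, 0.227 and 0.131 CPM in SRC1 KO and 0.564, 0.343 and 0.361 CPM in WT, and Dnaaf3 had 1.36, 2.75 and 1.29 CPM in SRC1 KO and 4.14, 3.33 and 2.86 CPM in WT. Their log2 fold changes were -1.34 ± 0.39 and -0.94 ± 0.30. Dnaaf4 and Ccdc103 came to -0.50 ± 0.15 and -0.46 ± 0.19, and all 4 had groups that did not overlap.

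Some libraries of a group were often the highest or lowest across the 29 genes. SRC1 KO 2 was the highest SRC1 KO library for 20 genes and SRC1 KO 1 the lowest for 19, while WT 1 was the highest WT library for 26 and WT 3 the lowest for 16. Both ends held together in fewer genes, with SRC1 KO 1 lowest and SRC1 KO 2 highest in 14 and WT 1 highest and WT 3 lowest in 15. Relative to the WT mean of each gene, the median over the genes was -0.80, -0.52 and -0.72 on the log2 scale in SRC1 KO 1 to 3 and 0.21, -0.07 and -0.22 in WT 1 to 3. The 2 groups did not overlap on this measure, and the SD among libraries of a group was 0.187.

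**Figure D3:**
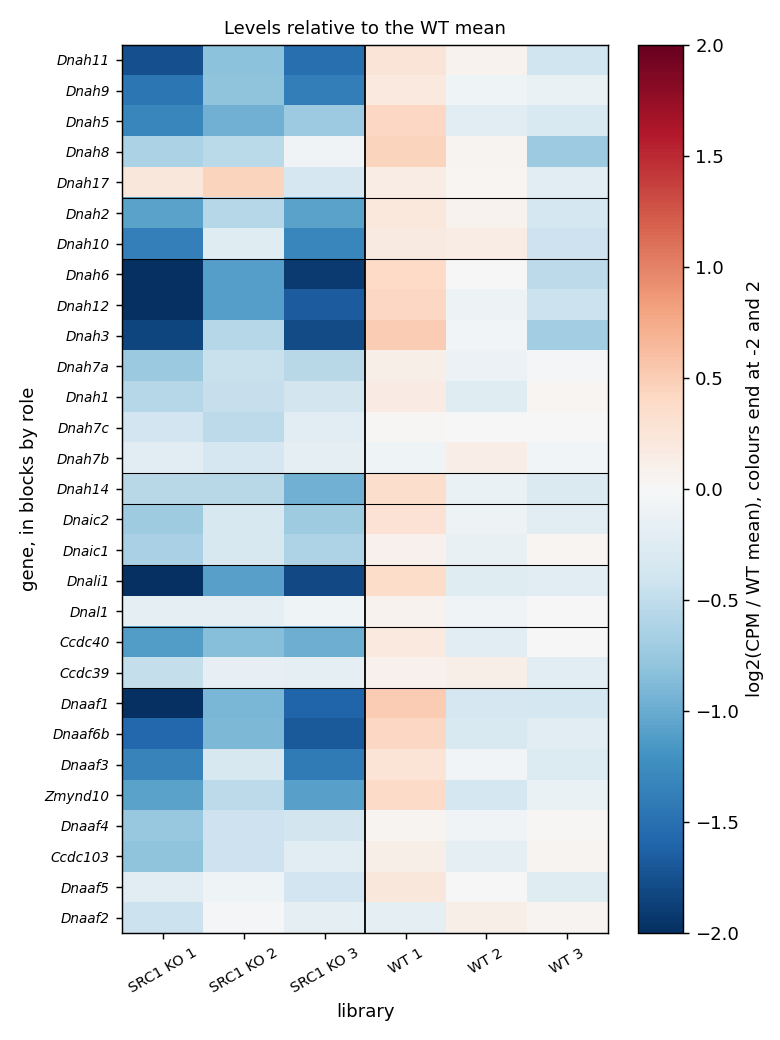
Levels of the 29 genes as log2 of CPM over the WT mean, genes down the page in blocks by role and libraries across, blue below and red above the WT mean. SRC1 KO 2 is the palest of the SRC1 KO columns for most of the genes with large differences, and WT 1 is the reddest of the WT columns for 26 of 29.

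Genes with larger differences between the groups were also those that varied more within them. The range over the SRC1 KO libraries, in log2 CPM, had a Spearman correlation of 0.70 with the range over the WT libraries across the 29 genes, and of 0.68 across the 26 with at least 500 counts. Genes are not independent replicates, and these points share their libraries. The range correlated with the log2 fold change at -0.71 in SRC1 KO and -0.66 in WT, and the WT level per kilobase at 0.23. Across the 26 genes with at least 500 counts these were -0.67, -0.62 and 0.18. Ranges, levels and fold changes are computed from the same values, so these correlations are not independent evidence. Ccdc40 is an example of a large difference with narrow ranges, and Dnali1 and Dnah6 of large differences with wide ones.

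**Figure D4:**
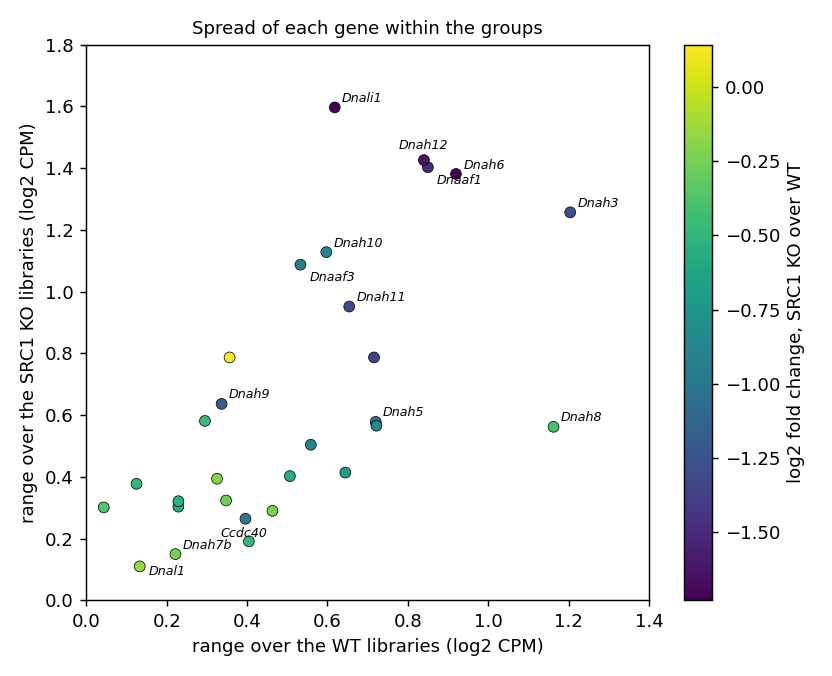
Range of each of the 29 genes over the 3 SRC1 KO libraries against its range over the 3 WT libraries, both in log2 CPM, coloured by the log2 fold change of SRC1 KO over WT. Dark points, with the lowest fold changes, lie to the upper right, Dnal1 and Dnah7b to the lower left, and Ccdc40 low among the points of like colour.

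The count that passed depended on which libraries entered the fit. Without SRC1 KO 2, edgeR called 7 of the 29 lower, where 1.08% of all genes were. These were Ccdc40, Dnah9, Dnah11, Dnah2, Dnah10, Dnaaf3 and Dnali1. Without SRC1 KO 1 it called 0 of 29, with a lowest adjusted p of 0.0632, where 0.111% of all genes were called lower and none of the 29 higher. Without SRC1 KO 3 and without WT 1 it called Ccdc40 alone, where 0.429% and 0.261% of all genes were lower. Without WT 2 it called Ccdc40 and Dnah1 (0.379% of all genes) and without WT 3 Ccdc40 and Dnah2 (0.752% of all genes). Without both SRC1 KO 1 and WT 1, 0 of 29 passed in edgeR, against 0.113% of all genes, 13 were lower at an unadjusted p under 0.05, against 3.92% of all genes, and 28 still had negative log2 fold changes, with a median of -0.54.

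With all 6 libraries, DESeq2 called 14 of the 29 lower, where 2.63% of all genes with an adjusted p were. These were Ccdc40, Dnah1, Dnah2, Dnah5, Dnah6, Dnah9, Dnah11, Dnah12, Dnaic1, Dnaic2, Dnali1, Dnaaf1, Dnaaf3 and Zmynd10. On the same libraries limma-voom called Ccdc40 and Dnah9, where 0.691% of all genes were. The edgeR fit with no filter on low counts called 10 lower (1.69% of all genes), and that scaled by library totals alone called 1, Ccdc40 (0.252% of all genes).

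Other parts of the motile cilium were read from lists of related genes. The 26 genes of the CFAP proteins, radial spokes and central apparatus all had negative log2 fold changes, with a median of -0.99, and 8 fell past the threshold in edgeR. They include Cfap54, a central apparatus protein, at -1.04 ± 0.13 (adjusted p = 0.0130, edgeR), and Spag16, also of the central apparatus, at -1.71 ± 0.24 (adjusted p = 0.0148, edgeR). Without both SRC1 KO 1 and WT 1, 0 of the 26 passed in edgeR, 19 were lower at an unadjusted p under 0.05 and the median was -0.67. The 5 genes of the docking complex, which binds outer arms to the doublet, were all negative, with a median of -0.64, and 0 passed. Lowest in p were Ttc25 at -0.90 and Armc4 at -1.37 (adjusted p = 0.0521 and 0.0572, edgeR). By edgeR all 5 were lower at an unadjusted p under 0.05, DESeq2 called 5 and limma-voom 1.

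The 11 genes of the nexin-dynein regulatory complex, which links doublets and contacts inner arms, had a median of -0.58 and 0 passed in edgeR. Drc7 was at -1.49 and Drc3 at -0.58, each with an adjusted p of 0.0530 in edgeR. By edgeR 8 were lower at an unadjusted p under 0.05, DESeq2 called 6 and limma-voom 3. The genes that carry axonemal intermediate chains and assembly factors under older symbols in the table, and so fall outside the rule, were 5, all negative, with a median of -0.40 and 0 past the threshold. Wdr78 (Dnai4) was at -0.40 (adjusted p = 0.0530, edgeR) and Casc1 (Dnai7) at -1.03 (adjusted p = 0.146, edgeR). By edgeR 3 were lower at an unadjusted p under 0.05, DESeq2 called 2 and limma-voom 0.

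The medians of 2 other lists lay near 0. The 11 other assembly and transport factors, which mix further factors for axonemal dyneins with chaperones used by many cells, had a median of -0.08. None passed, with 2 lower at an unadjusted p under 0.05 in edgeR (Pih1d2 at -0.90 and Daw1 at -1.45), 2 called by DESeq2 and 0 by limma-voom. Among the further factors for axonemal dyneins, Spag1 was at 0.09, Cfap298 at -0.12, Cfap300 at -0.19 and Lrrc56 at -0.29. Of the 11, 9 had negative log2 fold changes. The 13 cytoplasmic dynein genes, relatives that move cargo along microtubules, had a median of -0.03 and summed to 2713 to 2878 CPM in SRC1 KO and 2617 to 2786 CPM in WT. Of these 0 passed, with 2 lower (Dync2li1 and Dync2h1) and 2 higher (Dync1li2 and Dynlt3) at an unadjusted p under 0.05 in edgeR. DESeq2 called 0 and limma-voom 0. Dync1li2 was at 0.20 and Dynlt3 at 0.18. The dynein-2 genes Dync2h1, Dync2li1, Wdr60 and Wdr34, which serve transport in cilia, were at -0.35, -0.27, -0.16 and -0.11. Of the 13, 9 had negative log2 fold changes. The roadblock light chain Dynlrb2, a relative of Dynlrb1 on this list, stood among the ependymal markers instead and fell by 1.59 (adjusted p = 0.0381, edgeR), so the count of 0 depends on where it was placed.

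**Figure D5:**
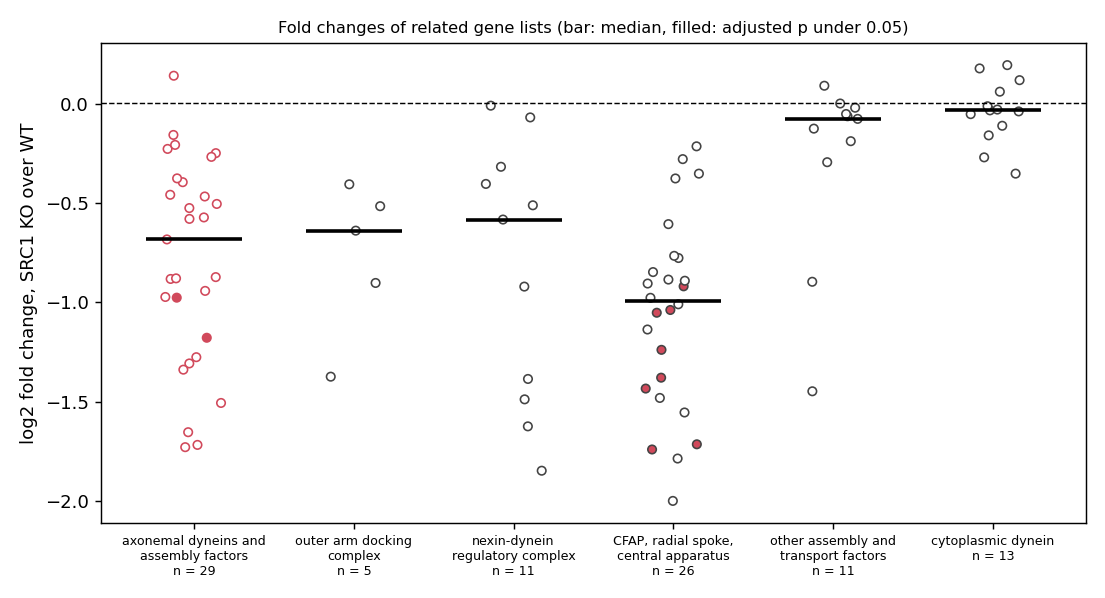
Log2 fold changes of SRC1 KO over WT, 1 point per gene, for the 29 axonemal dynein and assembly genes and 5 related lists; bars are medians, filled points have an adjusted p under 0.05 in edgeR and the dashed line is the median of all genes tested. Medians lie between -0.58 and -0.99 for the 29 genes, the docking complex, the nexin-dynein regulatory complex and the CFAP list. They lie at -0.08 and -0.03 for other assembly and transport factors and cytoplasmic dynein.

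The transcription factors that drive multiciliation had a median of -0.29 over 10 genes, and 0 passed. Rfx2 was at -0.75 (adjusted p = 0.0617, edgeR) and Myb at -0.99 (adjusted p = 0.171, edgeR). By edgeR 4 were lower at an unadjusted p under 0.05, DESeq2 called 3 and limma-voom 0. Foxj1, the master regulator of motile ciliogenesis, had 8.72, 14.5 and 10.4 CPM in SRC1 KO and 28.6, 22.8 and 16.2 CPM in WT. Its log2 fold change of -1.01 ± 0.28 did not pass (adjusted p = 0.209, edgeR). Of the 10 genes 8 had negative log2 fold changes, while Mcidas was at 0.53 and Rfx4 at 0.15.

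Markers of the cells that carry motile cilia moved with these genes. All 10 ependymal cell markers had negative log2 fold changes, 4 fell past the threshold in edgeR and the median was -1.59. Without both SRC1 KO 1 and WT 1, 0 of the 10 passed in edgeR, all 10 were lower at an unadjusted p under 0.05 and the median was -1.12. Summed, they came to 28.5, 55.1 and 39.3 CPM in SRC1 KO and 126, 93.5 and 86.4 CPM in WT, with SRC1 KO 2 the highest SRC1 KO library and WT 1 the highest WT library, as in most of the 29 genes. Most of these markers, such as Foxj1, Tekt1 and Ccdc153, are themselves genes of the motile cilium, so they are not a separate measure of the cells. Foxj1 also stands on the list of transcription factors and Ccdc153 on that of the nexin-dynein regulatory complex. The part of ependymal cell number in the results was not tested.

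Markers of neighbouring cells were read for the same purpose. Of 8 tanycyte markers, 7 fell past the threshold (5 without both SRC1 KO 1 and WT 1), and the list summed to 57.1 to 60.3 CPM in SRC1 KO and 130 to 204 CPM in WT. Of 10 choroid plexus markers tested, 0 passed in edgeR (4 lower and 0 higher at an unadjusted p under 0.05, 3 called by DESeq2 and 0 by limma-voom). The 11 on the list summed to 63.4 to 87.3 CPM in SRC1 KO and 91.3 to 123.02 CPM in WT, with Slc4a5 at 0 in at least 1 library. Ttr, the most abundant transcript of choroid plexus epithelium, had 0.262, 6.07 and 0.701 CPM in SRC1 KO and 5.91, 10.1 and 0.698 CPM in WT, under 1 CPM in SRC1 KO 1, SRC1 KO 3 and WT 3 and above it in the other libraries.

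Of 8 meningeal fibroblast markers, 1 fell past the threshold in edgeR, Lum, while DESeq2 called 4 and limma-voom 0. Without both SRC1 KO 1 and WT 1, edgeR called 0, with 2 lower at an unadjusted p under 0.05. They summed to 58.3 to 64.1 CPM in SRC1 KO and 67.6 to 269 CPM in WT. The 8 neuron markers had positive log2 fold changes with a median of 0.17 and 0 passed in edgeR (4 higher at an unadjusted p under 0.05, 3 called by DESeq2 and 0 by limma-voom). Of 8 oligodendrocyte markers 5 rose past the threshold, with a median of 0.68. Without both SRC1 KO 1 and WT 1, 0 passed in edgeR, where 6 of all 20431 genes passed as higher, and the median was 0.45. Apart from Slc4a5, every marker tested had counts in every library, and the part of these cells in the results for the dynein genes was not tested.

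The 29 genes lie on 14 chromosomes, with 6 on chromosome 11 and 5 on chromosome 1. The 3 on chromosome 12, where Ncoa1 lies, are Dnaaf2, Dnal1 and Dnah11, at 64.7, 79.6 and 113 Mb from it.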

How the data were processed

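RNA from 3 SRC1 KO and 3 WT mouse hypothalamus libraries was extracted with RNeasy and prepared with Illumina TruSeq kits, per the labels' protocols. The sources used here do not state poly(A) selection or strand. A single table of raw, unnormalized counts by gene was deposited by the authors. Per the submitters' processing notes, STAR 2.7.10a aligned the reads. Counting was by featureCounts over RefSeq exons of mm39 (GRCm39), without strand, per the file headers, which give version 2.0.0, while the notes give 2.0.3. Exon length in the deposited table was used only for levels per kilobase.

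The genes and lists were chosen with earlier results of these data known. Columns were matched to samples by library codes, and 0 columns of values were left unused. Counts of libraries of a group differed by more than sampling noise (chi-square per degree of freedom 8.01 to 16.9), so all were kept. SRC1 KO was compared with WT in edgeR 4.0.16 under R 4.3.3, after TMM scaling and a filter by group (minimum count 10), with robust quasi-likelihood F-tests and Benjamini-Hochberg adjustment over 20257 genes. SE was taken as the size of the log2 fold change over the square root of F, and the common coefficient of biological variation was 12.3%. The script was tested on simulated data.

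Values per library are given for genes past the threshold, for the 2 with the highest level per kilobase in each role, and for the 3 fold changes nearest 0 and the 3 most positive. Up to 2 genes with the lowest p per pathway list are named, without values per library. Dnah3, Dnah6, Dnah8, Dnah11, Dnah12, Dnaaf1, Dnaaf3, Dnaaf6b, Foxj1, Ttr, Lum, Dynlrb2 and the peptide genes were named after their values were seen. So were Cga, Spag1, Cfap298, Cfap300, Lrrc56, Dync2h1, Dynlt3, Wdr60, Wdr34, Mcidas and Rfx4. Levels set between genes are per kilobase.

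Alternatives were DESeq2 1.42.0, limma-voom (limma 3.58.1), RLE factors, library totals, no filter, at least 1 CPM in 3 libraries, a replicate block and each library left out. A fit without the library of each group with most Gh counts was added after seeing the data. Transcripts were compared by blastn 2.17.0 on GENCODE (at least 20% covered at 90% identity), and older symbols were matched by position and strand. The sequence at 1 match is not reported here.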

Additional observations from a re-analysis of the deposited data

How the results depend on the processing

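The median log2 fold change of the 29 genes was negative in every fit run, from -0.81 without WT replicate 3 to -0.52 without WT replicate 1. The stricter filter kept 27 of the 29, and its median is over those. The number that fell was 2 in the reported fit, 14 with DESeq2, 10 with no filter, 1 with library totals alone, 0 without the pair with most Gh counts, and from 0 to 7 with 1 library left out. With all genes, 169 changed in the reported fit, 824 with DESeq2, 966 with no filter, 84 with the stricter filter, 66 when scaled by library totals alone, 29 without the pair with most Gh counts, and from 36 to 260 with 1 library left out. The cause was not tested. The log2 fold change of Dnah17 ran from -0.0308 to 0.34 with 1 library left out. Lower genes were 71.0% of calls in the reported fit, 86.2% without SRC1 KO replicate 2, 87.2% without WT replicate 3 and 42.0% without SRC1 KO replicate 3.

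Same-numbered libraries had correlations of their deviations of -0.21, 0.35 and 0.22, so the numbers were not taken to pair the libraries, and not every library correlated best with its own number. With a replicate block 1 of the 29 passed, Ccdc40, and 155 genes changed.

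Low depth limits Dnah14, Dnaaf1 and Dnaaf6b, which had under 2.5 CPM in every library. Values of the Dnah7 copies and of Ccdc39 depend on how shared reads were counted. Exons shared with other genes cover more than 10% of 6 genes in all, among them Dnaaf1 (17.1%) and Dnaaf3 (13.1%).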
